A study of Oryza sativa with 6 samples.

Results

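The type-A response regulators of rice were taken here as the genes that carry the whole name RR1 to RR10, with or without the Os prefix, in the array's annotation or in an NCBI RefSeq gene table. Pseudo-response regulators, named PRR, do not fall under this rule. Of 17905 genes that are read by a probe set with a single gene, 6 qualified, each with 1 probe set. They are OsRR1 (LOC4335937), OsRR2 (LOC4329677), OsRR4 (LOC4325747), OsRR5 (LOC4336439), OsRR6 (LOC4337372) and OsRR9 (LOC4349747). RR3, RR7, RR8 and RR10 were not analysed here. The levels come from Affymetrix rice arrays hybridised with RNA of whole shoots, 1 array per sample. The wild type was the japonica cultivar Zhonghua 11 and the other group the mutant line dst, each with 3 biological replicates per the labels. The labels name no parent cultivar for dst, no stress treatment and no number of plants per sample. All seedlings were 25 days old, from a growth chamber set to 26 °C for the 11 h of light and to 22 °C for the 13 h of dark. DST encodes a zinc finger protein known from drought and salt responses. The comparison asks how its mutation goes together with transcript levels in shoots for which no stress is named.

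Cytokinin is sensed by histidine kinases in cell membranes, and the signal passes as a phosphate over phosphotransfer proteins to response regulators in the nucleus. Type-B response regulators carry a DNA-binding domain and switch on target genes. Type-A response regulators are among their earliest targets, consist mainly of the receiver domain, and hold the pathway back, so that their transcripts are widely used as a readout of cytokinin signalling. Among the genes measured here, OsRR6 is known to make plants less sensitive to cytokinin when overexpressed. OsRR1 and OsRR2 are known from work on crown root formation, and OsRR9 from work on salt tolerance together with its close copy RR10. The probe set of OsRR9 may also read RR10 transcript, which was not tested. That of OsRR4 carries the suffix that Affymetrix gives to probe sets shared by several transcripts.

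The third array of each group stood apart from the other 4. Signals topped out at 31461 (wild type) and 32620 (dst) on these arrays but at 41451 to 43119 elsewhere, while array medians over rice probe sets ranged from 117.6 to 140.9. For the brighter GAPDH control, 3′ over 5′ signal was higher on every dst array, at log2 values of 1.01 to 1.36 against 0.35 to 0.62. The actin values were 1.51 to 1.75 in dst and 1.66 to 1.76 in the wild type. The part of these ratios in the results was not tested. The green shoot markers were bright, with a summed signal over 11 probe sets of 209364 to 273578 on wild-type and 214292 to 253680 on dst arrays. The sums for flower and pollen markers were 2269 to 2565 and 2237 to 2569. Root markers summed to 2402 to 2843 and 2126 to 2460, mostly from Lsi1, and without Lsi1 to 1099 to 1329 on wild-type arrays and 519 to 981 on dst arrays, without overlap. Of 5 tested root probe sets 4 had a lower mean in dst and none passed. Lsi1, left out of the second sum, was the 1 with a higher mean, at 0.14 ± 0.13 (SE) on the log2 scale. The largest difference was that of YSL15, at -1.14 on the log2 scale, and the part of root tissue in the results was not tested.

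None of the 6 type-A response regulators passed the test for a change in dst shoots. In limma over 34316 tested probe sets, in which 0.924% of all probe sets passed an adjusted p of 0.05 (0.393% higher and 0.53% lower in dst), the adjusted p of the 6 genes ran from 0.848 to 0.997. None of the 6 had an unadjusted p under 0.05, against 10.5% of the tested probe sets. The groups overlapped for all 6 genes, whereas every dst value lay above or every one below the wild-type values in 16.6% of the tested probe sets. The mean was higher in dst for 4 of the 6, and 52.8% of all tested probe sets had a higher mean in dst. The median log2 difference, dst minus wild type, was 0.15 over the 6 genes and 0.02 over all tested probe sets. Without wild-type replicate 1 the median of the 6 was -0.22. All 6 probe sets passed the filter on low signals. What did differ was the level from one replicate to the next, and for 4 of the genes the same arrays were low.

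**Figure D1:**
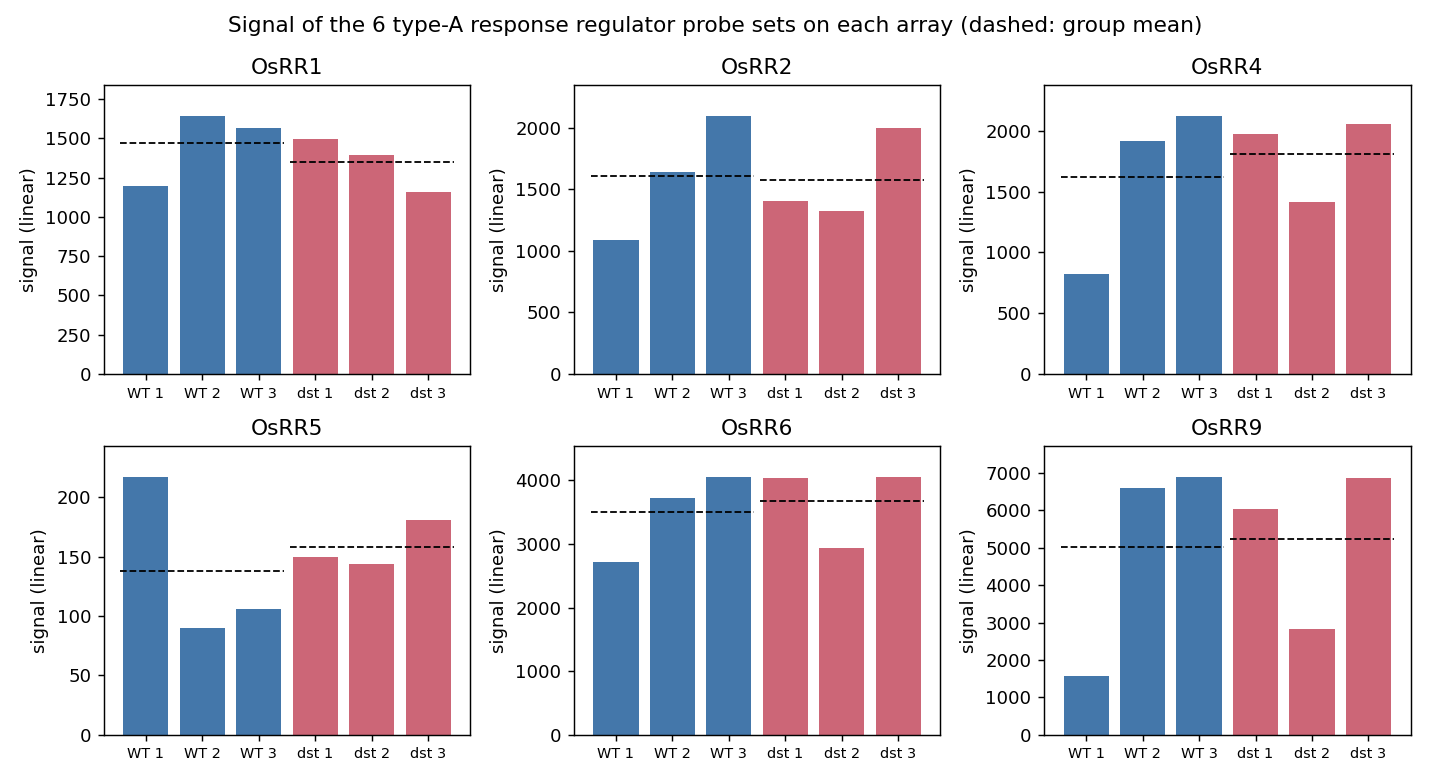
Signal on a linear scale (vertical axis) of each type-A response regulator on each of the 6 arrays (horizontal axis), with wild type (WT) in blue, dst in red and the group means as dashed lines. Wild-type replicate 1 is the lowest array for OsRR2, OsRR4, OsRR6 and OsRR9 and the highest for OsRR5, and the groups overlap in every panel.

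OsRR9 varied most among the 6. Its signal was 1585 in wild-type replicate 1, 6591 in replicate 2 and 6900 in replicate 3, and 6023, 2828 and 6854 in dst replicates 1 to 3. Wild-type replicate 1 and dst replicate 2 were low, and the other 4 arrays lay close together whichever genotype they came from. The highest wild-type signal was 4.35 times the lowest, and in dst the factor was 2.42. The group means were 5025 ± 2983 in the wild type and 5235 ± 2125 in dst (SD, n = 3). The log2 difference was 0.23 ± 0.53 (SE), with a 95% interval of -0.96 to 1.42 and an adjusted p of 0.929 in limma. This interval reaches past a doubling, so such a change of OsRR9 could not have been told from none with these arrays. Without wild-type replicate 1 the log2 difference was -0.46.

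OsRR4 had the same low arrays on a smaller scale. It measured 822, 1915 and 2123 in wild-type replicates 1 to 3, and 1970, 1415 and 2056 in dst. Wild-type replicate 1 was again the lowest array and dst replicate 2 the next, and the dst values lay within the wild-type range. The means were 1620 ± 699 and 1814 ± 348 (SD, n = 3), with a log2 difference of 0.26 ± 0.32 (SE) and a 95% interval of -0.46 to 0.98. Its adjusted p of 0.848 in limma was the smallest of the family. Leaving out wild-type replicate 1 turned the log2 difference to -0.17.

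OsRR6, the regulator that dampens cytokinin sensitivity when overexpressed, measured 2722, 3713 and 4055 in the wild type and 4039, 2942 and 4043 in dst. The same arrays were the lowest of their groups, with a narrower spread than in OsRR9 and OsRR4. The means were 3497 ± 692 and 3675 ± 634 (SD, n = 3). The log2 difference was 0.08 ± 0.18 (SE), with a 95% interval of -0.32 to 0.47 and an adjusted p of 0.930 in limma. It was -0.09 without wild-type replicate 1 and -0.00020 without dst replicate 3.

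OsRR2, known from crown root formation, measured 1091, 1644 and 2095 in wild-type replicates 1 to 3. In dst it measured 1401, 1326 and 2000. The third arrays were the highest of both groups and wild-type replicate 1 the lowest of all. The means of 1610 ± 503 and 1576 ± 370 (SD, n = 3) gave a log2 difference of -0.01 ± 0.24 (SE), with a 95% interval of -0.54 to 0.53 and an adjusted p of 0.997 in limma. With 1 array left out the log2 difference of OsRR2 lay between -0.26 and 0.21.

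OsRR1 had the tightest values of the family. Its signal was 1199, 1642 and 1568 in the wild type and 1498, 1393 and 1156 in dst. The lowest array was dst replicate 3 and the next wild-type replicate 1, the lowest of its group. OsRR1 thus shared the low wild-type array of the 4 genes above but not their low dst array. The means were 1470 ± 237 and 1349 ± 175 (SD, n = 3), and the log2 difference was -0.12 ± 0.16 (SE) with a 95% interval of -0.47 to 0.23 and an adjusted p of 0.859 in limma. Of the 6 intervals, 4 lay within -1 to 1 on the log2 scale, those of OsRR1, OsRR2, OsRR4 and OsRR6. In limma each spread is drawn towards that usual for the gene's brightness. The interval of OsRR4, which ended at 0.98, would be wider from its own spread alone. A doubling of OsRR4 can therefore not be called excluded.

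OsRR5 gave a low signal and ran the other way on the array where OsRR9 was lowest. It measured 217, 90.3 and 105.8 in wild-type replicates 1 to 3, and 149.8, 143.8 and 181.1 in dst. Wild-type replicate 1 was the highest of the 6 arrays and the other 2 wild-type arrays were the lowest, so that the dst values fell between them. The means were 137.8 ± 69.2 and 158.2 ± 20.0 (SD, n = 3). The log2 difference was 0.30 ± 0.38 (SE), with a 95% interval of -0.54 to 1.15 and an adjusted p of 0.848 in limma. Without wild-type replicate 1 the log2 difference was 0.69, the largest that leaving out any 1 array gave for OsRR5, and its adjusted p there was 0.491.

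**Figure D2:**
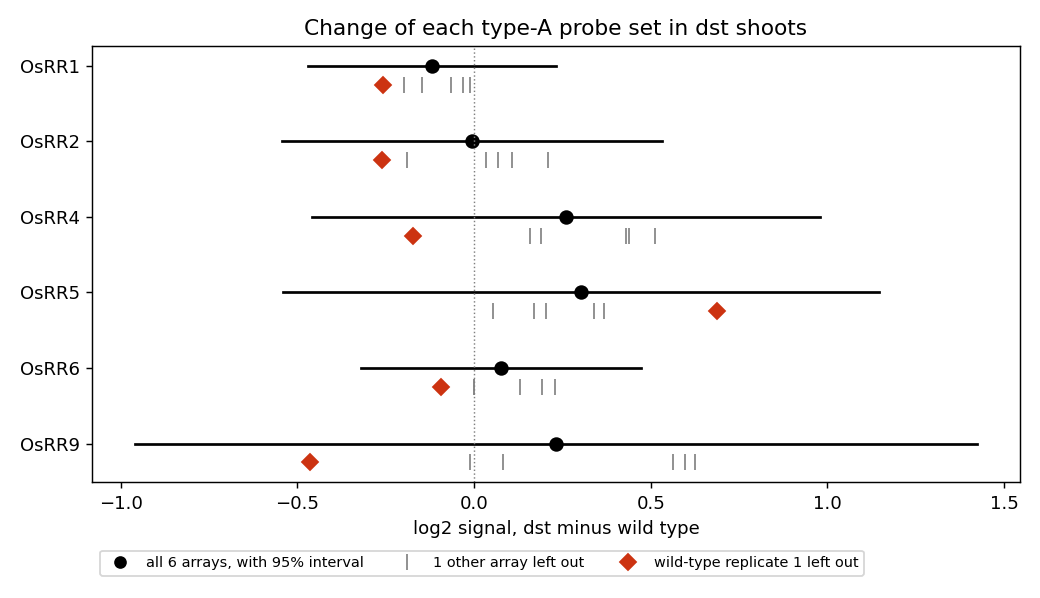
Difference in log2 signal, dst minus wild type (horizontal axis), for each type-A response regulator (vertical axis), with the 95% interval of limma on all 6 arrays (black) and the values with 1 array left out below it. Every interval spans 0, and leaving out wild-type replicate 1 (red diamonds) moves OsRR4, OsRR6 and OsRR9 from above to below 0.

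The shared low arrays can be put in numbers. Wild-type replicate 1 was the lowest and dst replicate 2 the second lowest array for 4 of the 6 genes, OsRR2, OsRR4, OsRR6 and OsRR9. Across all tested probe sets that order was seen in 3.92%, and wild-type replicate 1 was the lowest of the 6 arrays in 18.2% and the highest in 22.2%. Relative to its own mean over the 6 arrays, OsRR9 lay at -1.51 on the log2 scale in wild-type replicate 1 and at -0.67 in dst replicate 2. The values at these 2 arrays were -0.99 and -0.21 for OsRR4, -0.38 and -0.27 for OsRR6, and -0.51 and -0.23 for OsRR2. OsRR1 lay at -0.22 in wild-type replicate 1 and at -0.0048 in dst replicate 2, and OsRR5 at 0.62 and 0.02. The order with wild-type replicate 1 lowest and dst replicate 2 next was also seen outside the family. It held in 2 of 5 tested receptor probe sets and 2 of 5 for enzymes that break cytokinin down. Among enzymes that release active cytokinin it held in 1 of 8, and among type-B regulators in 0 of 4. The pattern was noticed in these values and is given as a description.

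**Figure D3:**
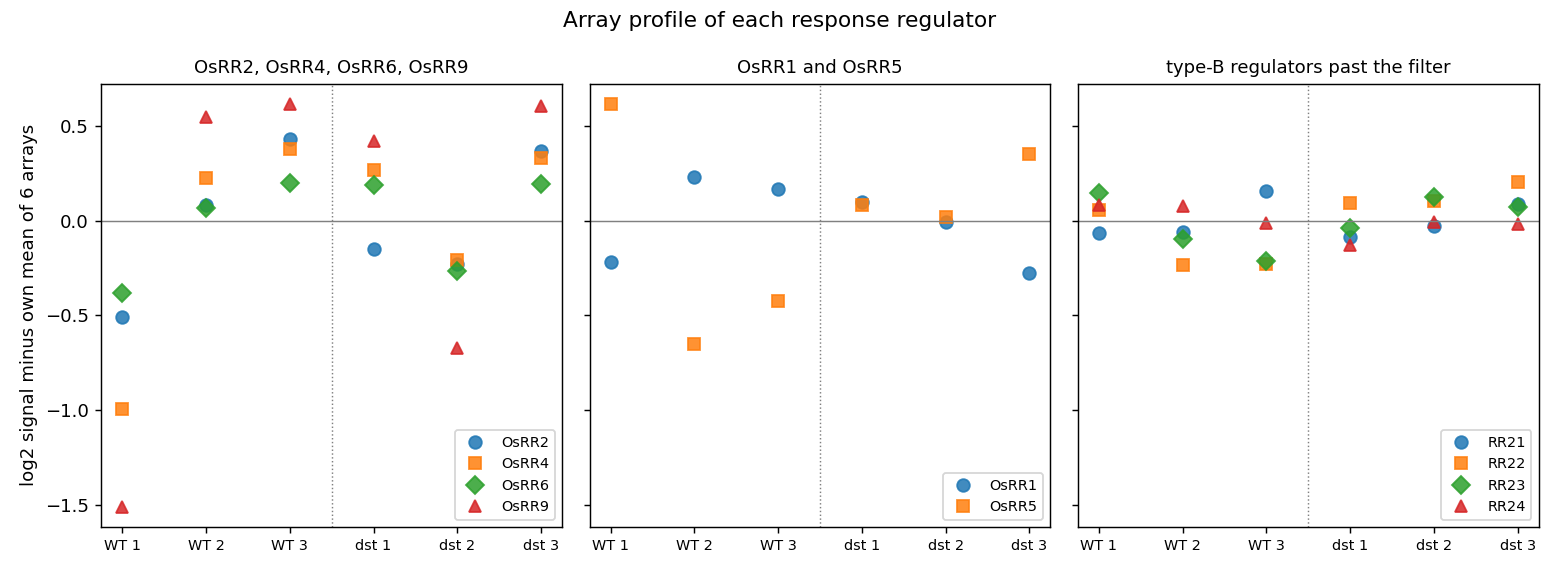
Log2 signal of each response regulator minus its own mean over the 6 arrays (vertical axis), by array (horizontal axis, wild type left of the dotted line). OsRR2, OsRR4, OsRR6 and OsRR9 share their low arrays. OsRR1 shares only the low wild-type replicate 1 and OsRR5 neither, and the 4 type-B regulators lie between -0.23 and 0.20.

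Over the 6 arrays, log2 signals of OsRR4 and OsRR9 correlated at a Pearson r of 0.98 and a Spearman rho of 0.94, with exact permutation p of 0.00694 and 0.0167. All 15 pairs of the family were computed after the values had been seen. After Benjamini-Hochberg adjustment over the 15, the exact permutation p of Pearson's r was under 0.05 in 5 pairs and that of rho in 6, all of them among OsRR2, OsRR4, OsRR6 and OsRR9. The share of such pairs among all tested probe sets was not computed, so these counts cannot be called particular to the family. The permutation also treats the 6 arrays as exchangeable, although the third arrays stood apart and the arrays came from both genotypes. OsRR4 with OsRR6 had r = 0.93 and rho = 1, with exact permutation p of 0.00139 and 0.00278 and adjusted p of 0.0208 for each. The smallest p that the 720 pairings allow is 0.00139. OsRR1 and OsRR5 were opposed, at r = -0.91 and rho = -0.89, with adjusted p of 0.0521 and 0.0714 in the exact permutation test, and r stayed at -0.87 without wild-type replicate 1 and dst replicate 3. Without wild-type replicate 1 and dst replicate 2, r over the remaining 4 arrays differed between the pairs. It was 0.96 for OsRR2 with OsRR9, 0.80 for OsRR2 with OsRR4, 0.77 for OsRR4 with OsRR6 and 0.61 for OsRR4 with OsRR9. It was 0.28 for OsRR2 with OsRR6 and 0.02 for OsRR6 with OsRR9. On these 4 arrays OsRR6 ran only from 3713 to 4055, which leaves little range for r. How far any of these relations rests on the low arrays was not tested. Without the 2 arrays farthest from its own median, wild-type replicates 1 and 3, r of OsRR2 was 0.69 with OsRR4, 0.61 with OsRR6 and 0.71 with OsRR9. The r values over 4 arrays are given without a test. No r was computed within the third arrays, of which there are 2, or within the other 4.

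The spread of OsRR9, OsRR4 and OsRR2 was wide for their brightness. The within-group SD on the log2 scale was 0.98 for OsRR9, 0.57 for OsRR4, 0.41 for OsRR2, 0.28 for OsRR6, 0.22 for OsRR1 and 0.49 for OsRR5. Among tested probe sets whose mean log2 signal lay within 1 of the gene's own, 0.207% had a larger SD than OsRR9, 1.34% a larger one than OsRR4 and 4.57% a larger one than OsRR2. The share was 11.7% for OsRR6 and 29.7% for OsRR1, and the SD of OsRR5 stood beside a median of 0.43 for its like probe sets. The median SD was 0.45 over the 6 genes and 0.12 over the tested type-B regulators. It was 0.44 over the tested cytokinin oxidases and 0.80 over the tested KNOX homeobox genes, so a wide spread was not particular to the family. These lists differ in brightness. The 28S rRNA control signal was 2206, 763 and 85.7 in wild-type replicates 1 to 3 and 474, 294 and 75.6 in dst, so wild-type replicate 1 was also the highest array of this control. Dst replicate 2 did not stand out in it. The part of rRNA signal in the spread of the response regulators was not tested.

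**Figure D4:**
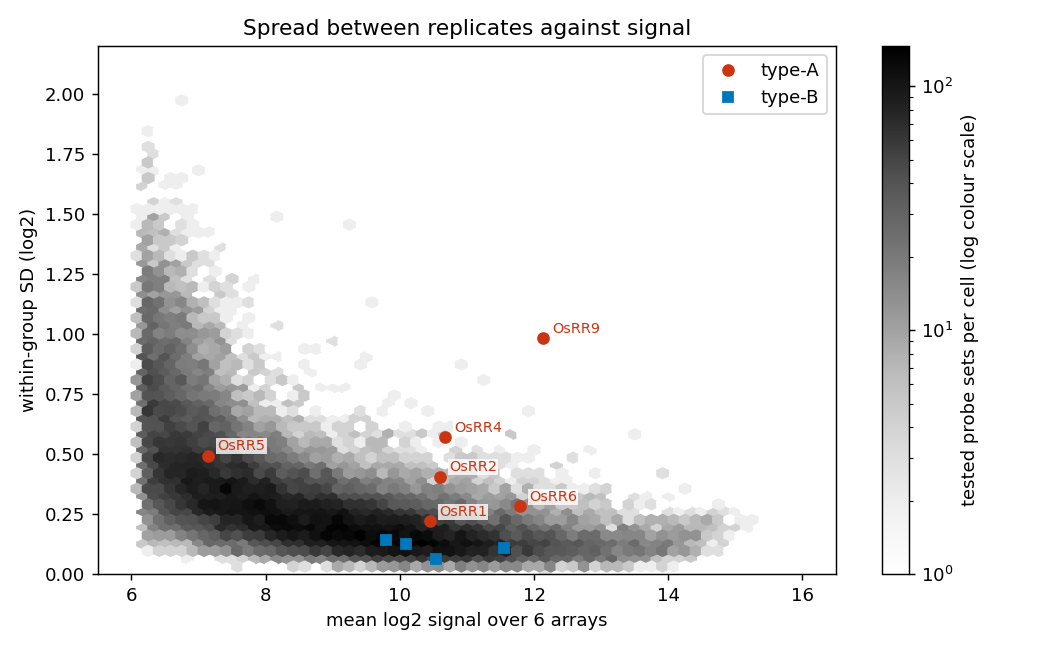
Within-group SD of log2 signal (vertical axis) against mean log2 signal over the 6 arrays (horizontal axis) for all tested probe sets (grey, darker where more probe sets fall), with the type-A (red) and type-B (blue) response regulators marked. OsRR9 lies far above probe sets of its brightness at an SD of 0.98, and the type-B regulators lie between 0.06 and 0.14.

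By the naming rule, the probe sets most like the family member with the smallest p, OsRR4, were those of FH13 of the formin family with r = 0.99, OsRR9 with r = 0.98 and the CCCH zinc finger gene OsC3H11 with r = 0.98 over the 6 arrays. They were picked as the highest among probe sets of named genes, so these values carry no test. FH13 measured 404, 657 and 687 in the wild type and 642, 517 and 699 in dst, with the same low arrays as OsRR4. In all, 11 of the tested probe sets, FH13 included, reached the r of FH13.

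The genes that act upstream of the type-A regulators were measured on the same arrays. Of the type-B regulators, the DNA-binding activators, 4 of 5 probe sets were tested and none passed. Their median log2 difference was 0.04, and their within-group SD was 0.06 to 0.14. RR22 had the smallest p, with 1135, 929 and 932 in the wild type and 1164, 1173 and 1257 in dst. Its groups did not overlap, and its log2 difference was 0.27 ± 0.13 (SE), at an adjusted p of 0.513. RR42, a type-C regulator, measured 0.14 ± 0.12 with an adjusted p of 0.761, and 0.06 without wild-type replicate 1. RR41 lay under the filter at a signal of 2.1 to 20.6.

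Among the receptors, 5 probe sets of 4 genes were tested and none passed, with a median log2 difference of -0.06. HK5 had the smallest p and measured -0.20 ± 0.17 (SE), at an adjusted p of 0.755. With 1 array left out it ranged from -0.41, without wild-type replicate 1, to -0.10. A second probe set of HK5 measured -0.06 ± 0.17. HK4 measured 371, 701 and 715 in the wild type and 497, 464 and 595 in dst, with wild-type replicate 1 the lowest and dst replicate 2 the second lowest array, as in OsRR9. HK4 was chosen for this order after its values were seen. Of 4 phosphotransfer probe sets none passed. The smallest p there was that of PHP5, of the pseudo-phosphotransfer proteins that lack the phosphate-accepting histidine. PHP5 measured 0.35 ± 0.16 (SE) at an adjusted p of 0.481 in limma, and its groups did not overlap.

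The enzymes that set cytokinin levels held the single call among these genes of cytokinin signalling and metabolism. Of 8 tested probe sets for LOG enzymes, which release active cytokinin, LOGL3 fell and 7 did not pass. LOGL3 measured 2292, 2067 and 2612 in the wild type against 1231, 1286 and 1606 in dst, so its groups did not overlap (limma, adjusted p = 0.0439). Its call was kept in 7 of 15 alternative fits and lost in 8, with a log2 difference of -0.88 to -0.67 over them. The calls lost include those without either of dst replicates 1 and 2 and without any 1 wild-type replicate, and the highest adjusted p was 0.237 in limma. The median log2 difference of the 8 was -0.09, with 3 higher and 5 lower in dst. LOG itself, chosen after its values were seen, measured 2250, 2191 and 2759 in the wild type and 1266, 2054 and 1918 in dst, without overlap. Its log2 difference was -0.48 ± 0.19 (SE), at an adjusted p of 0.387 in limma. Another LOG probe set lay under the filter. None of 5 tested probe sets for cytokinin oxidases, the enzymes that break cytokinin down, passed, and their median was -0.08. CKX4 had the smallest p and measured 441, 1114 and 1475 in the wild type and 1962, 1569 and 1998 in dst, with a log2 difference of 1.03 ± 0.37 (SE) and an adjusted p of 0.340 in limma. Without wild-type replicate 1 the log2 difference of CKX4 was 0.52. CKX5, also chosen after its values were seen, went the other way. It measured 229, 222 and 267 in the wild type and 145, 183 and 93.1 in dst, without overlap. Its log2 difference was -0.82 ± 0.30 (SE), at an adjusted p of 0.358 in limma. Of the 5 oxidase probe sets, 2 had a higher and 3 a lower mean in dst. The groups did not overlap in 3 of the 5, and in 16.6% of all tested probe sets. CKX3, chosen after its values were seen, ran from 34.0 in wild-type replicate 1 and 103.4 in dst replicate 2 to between 231 and 354 on the other arrays, the same low arrays as in OsRR9. CKX11 had 1 probe set at -0.88 ± 0.42, without overlap of the groups, and another at -0.08 ± 0.26, with overlap.

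Genes beside the pathway gave 1 further call. Of 6 probe sets of pseudo-response regulators, clock proteins that share the receiver fold but take no phosphate, OsPRR1 rose and 5 did not pass. OsPRR1 measured 121, 162 and 102 in the wild type and 417.5, 379.7 and 480.9 in dst (limma, adjusted p = 0.0108), while the list's median was -0.01. The call of OsPRR1 was kept in 12 of 15 alternative fits and lost in 3, among them the fit without dst replicate 1, at an adjusted p of 0.0708 in limma. In OsPRR37 the third arrays were the lowest of their groups, at 147 and 199 against 872 to 1033 on the other 4 in its more variable probe set. KNOX genes are homeobox genes, some of which act in the shoot meristem and are known to raise cytokinin synthesis. Of 7 tested KNOX probe sets none passed and the median was 0.25, with 4 higher and 3 lower in dst. The lower ones were those of OSH43, at -1.29 ± 0.69 and -0.30 ± 0.51, and of OSH45, at -0.23 ± 0.11 without overlap of the groups. The probe set of OSH1 with the smallest p measured 496, 194 and 99.9 in the wild type and 658, 902 and 689 in dst. Its groups did not overlap, and its log2 difference was 1.81 ± 0.47 (SE), at an adjusted p of 0.162. The other OSH1 probe set measured 1.66 ± 0.45. Without wild-type replicate 1 both passed, at log2 differences of 2.42 and 2.15 and adjusted p of 0.00945 and 0.0408 in limma. Without wild-type replicate 3 they measured 1.26 and 1.09, with adjusted p of 0.243 and 0.198 in limma, and from replicates 1 and 2 only, 1.31 and 0.91. The summed signal of the 4 shoot meristem marker probe sets, of which 2 read OSH1, was 1068 to 1525 on wild-type arrays and 2103 to 2441 on dst arrays. Without the OSH1 probe sets the sums overlapped, at 617 to 873 and 832 to 952. FON1 measured 0.32 ± 0.16, and OsWOX4, under the filter, averaged 34.1 on wild-type and 19.6 on dst arrays. In whole shoots, fewer cells of a type and less RNA per cell cannot be told apart. The part of meristem tissue in the type-A levels was not tested.

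**Figure D5:**
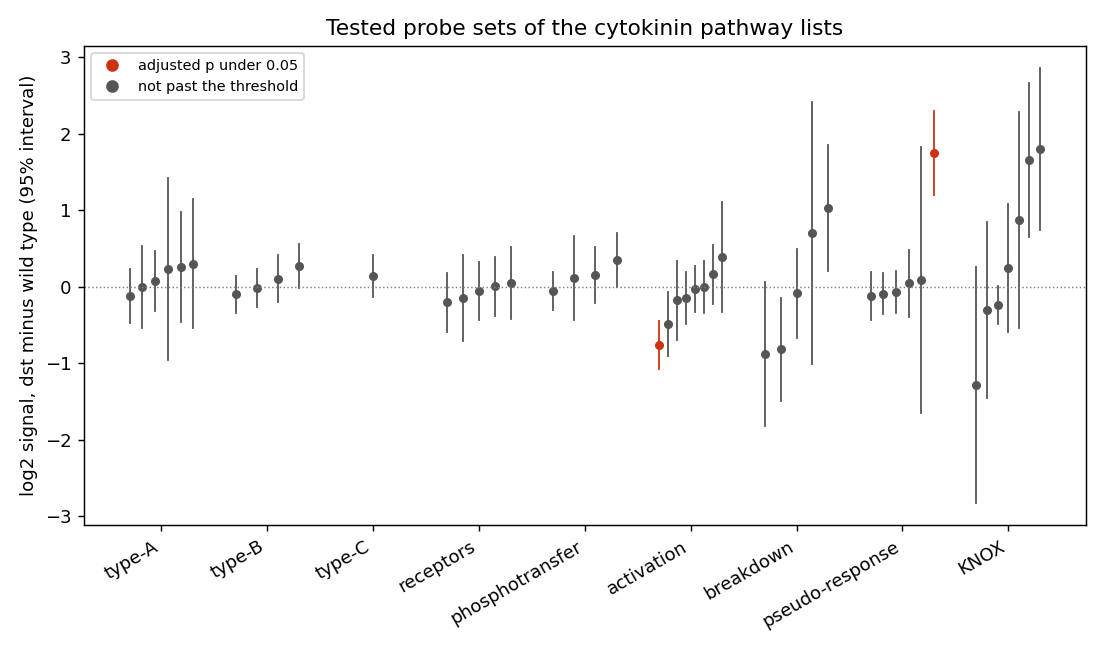
Difference in log2 signal, dst minus wild type, with its 95% interval (vertical axis) for each tested probe set of the type-A regulators and of the other lists (horizontal axis). The 6 type-A probe sets all span 0, and LOGL3 among the activation enzymes and OsPRR1 among the pseudo-response regulators (red) passed an adjusted p of 0.05.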

How the data were processed

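The deposited table holds a linear signal intensity for each probe set on each array. Which software and scaling the authors used is not given in the sources here. Per the labels, Trizol was used for RNA and standard Affymetrix procedures for biotin labelling. Signals were floored at 1 before log2. After removal of 187 control probe sets, of 57194 rice probe sets the 34316 with a mean log2 signal at or above the 40th percentile (a signal of 70.5) were tested. The test was limma 3.58.1 (R 4.3.3), by lmFit without covariates and trended eBayes, with Benjamini-Hochberg adjustment over all tested probe sets at 0.05. Standard errors and intervals of log2 differences are those of limma. The number of arrays limits the precision, and no detection calls were used. P-values of limma set each group difference against the spread between these samples, moderated over the tested probe sets.

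Each of the 22436 probe sets with 1 gene in the platform annotation was found in the RefSeq gene table of assembly ASM3414082v1, 95 have several genes and 34663 none. The table served for names and no coordinates are given, because the build behind the array values is not named. Every probe set of each gene was used. The naming rule takes all probe sets of RR1 to RR10, from each other list the members past the threshold or else the one with the smallest p, and the 3 probe sets of named genes most like the member with the smallest p. Clone and locus identifiers were not counted as names. The lists for RR11 to RR13, IPT and zeatin glucosyltransferase genes matched no single-gene probe set. Members, lists and tests were chosen with earlier results of these data known. The fit was also run on simulated data with independent normal noise at the fit's own variances. Those data held no shared low arrays and no difference of the third arrays, so they give no check on either. Alternatives covered normalization, filter, offset, variance trend, blocks, threshold and each array left out. Plots were drawn with matplotlib 3.10.9.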

Additional observations from a re-analysis of the deposited data

How the results depend on the processing

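None of the 6 type-A response regulators passed the threshold in any of the 15 alternative fits, where the lowest adjusted p of any of them was 0.491 in limma. Their direction held in 78 of 89 comparisons with alternatives and turned in 11. The filter, variance trend and block fits leave each log2 difference as it was, so they could not turn a direction. All 11 turns came from fits with fewer arrays. With 1 array left out, the log2 difference ranged from -0.26 to -0.01 for OsRR1, from -0.26 to 0.21 for OsRR2, from -0.17 to 0.51 for OsRR4, from 0.05 to 0.69 for OsRR5, from -0.0940 to 0.23 for OsRR6 and from -0.46 to 0.63 for OsRR9. It ranged from -0.30 to 0.19 for the brighter CKX11 probe set, from -0.26 to 1.26 for CKX3, from 0.52 to 1.39 for CKX4, from 0.06 to 0.21 for RR42, from -0.46 to 0.0163 for HK4 and from -0.25 to 0.11 for the brighter HK5 probe set. In replicates 1 and 2 only, a setting added after the data were seen, OsRR1 turned to 0.0416 and OsRR2 to 0.0251. The median over the 6 genes was 0.15 and ranged from -0.22 without wild-type replicate 1 to 0.30. The number of changed probe sets on the whole array was 317, from 118 without wild-type replicate 2 to 280 without dst replicate 3. It was 80 without the variance trend, 606 with a block for the third arrays and 122 at an adjusted p under 0.01, a lower count that the stricter threshold brings by itself. The cause was not tested for the trend and the block. With the replicate block it was 463, and the 6 genes had no call. Their log2 differences cannot change under this block. Deviations of same-numbered samples from their group means correlated at 0.05, 0.05 and 0.20 for replicates 1, 2 and 3. Values for differently numbered samples were not set beside them, so these do not settle whether the numbers pair the samples. The main fit used no pairing. OsRR5 was not tested with the filter at the 60th percentile. Signal over background is unknown without detection calls, which bears most on OsRR5.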
